A study of Sus scrofa with 20 samples.

Results

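The 10 genes listed for glucose uptake and glycolysis in the porcine adrenal gland were the glucose transporters SLC2A1 and SLC2A3, the hexokinases HK1 and HK2, the phosphofructokinase PFKP, the glycolytic enzymes PGK1, ENO1 and LDHA, the kinase PDK1 and the growth factor VEGFA. They were found by their gene symbol in the annotation table of the array. Of the 10 genes, 8 had a named probe set, among 13588 genes that did, while HK2 and LDHA had none under their symbol and were not analysed here. The 8 genes had 31 probe sets in all, and each gene was represented by its brightest probe set, judged by the mean of all 20 arrays, so that the choice used the level and not the group. In HK1 this choice was close, with means of 9.35 and 9.23 on the log2 scale for the brightest and the next probe set, whereas in SLC2A1 the means were 9.06 and 5.37.

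SLC2A1 (GLUT1) and SLC2A3 (GLUT3) carry glucose across the plasma membrane, hexokinase traps it as glucose 6-phosphate, and phosphofructokinase commits it to glycolysis, in which PGK1 and ENO1 catalyze later steps and lactate dehydrogenase returns pyruvate to lactate. PDK1 inhibits the pyruvate dehydrogenase complex and so holds pyruvate back from the mitochondria, and VEGFA is the main growth factor of blood vessels. Most of them are known in mammalian cells as genes that the hypoxia-inducible factors can induce. The adrenal gland is a densely vascularized organ in which a steroid-producing cortex surrounds a medulla of catecholamine-producing chromaffin cells.

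Adrenal glands of 20 German Landrace pigs, labelled as adult and slaughtered some months after birth, were compared, 10 high-reactive (HR) and 10 low-reactive (LR), with 1 array per animal and no treatment in either group. The groups were picked from both ends of the backtest, a test of how strongly a young pig resists being restrained on its back, and also by haplotype in a QTL region for coping, so that behavior and haplotype cannot be told apart. Whole glands were measured, and fewer cells of a type cannot be told apart from less RNA per cell. Batch, litter and sex of the animals are not given in the sources used here.

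Values are log2 intensities after robust multi-array averaging (RMA), and the array medians lay between 4.74 and 4.81. The array of HR2835 stood apart, since its mean correlation with the other arrays over all probe sets was 0.938, against 0.977 to 0.983 for the 19 other animals. HR2835 had the lowest value of all 20 animals in 4 of the 8 genes (SLC2A1, SLC2A3, PFKP and ENO1) and the highest in 2 (HK1 and VEGFA). Group differences and coefficients over all animals were therefore also computed without this animal. The gland was recognizable by its markers, with CYP17A1 and CYP21A2, enzymes of steroid synthesis, at a mean of 13.56 and 13.54, and the chromaffin granule proteins CHGB and CHGA at 12.15 and 11.20.

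All 8 genes lay above the median level of all probe sets (4.78). VEGFA, with a mean of 11.21 over all arrays, was exceeded by 0.57% of the probe sets, PGK1 (10.63) by 0.939%, ENO1 (10.33) by 1.25%, SLC2A3 (10.28) by 1.29%, HK1 (9.35) by 2.92%, SLC2A1 (9.06) by 3.67%, PFKP (8.04) by 8.41% and PDK1 (6.04) by 30.2%. These ranks describe the brightness of probe sets, which also depends on the probes, so that no gene was set against another by its level.

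Between HR and LR, none of the 8 genes differed after adjustment over all 47722 probe sets (limma, adjusted p = 1.0 for each). In the same comparison 0 probe sets of the whole array were called, which is 0.0%. At an unadjusted p under 0.05, 1 of the 8 genes, SLC2A1, and 2 of their 31 probe sets were past the threshold, against 3.65% of all probe sets. The mean was lower in HR in 5 genes and higher in 3, while 53.7% of all genes had the lower mean in HR, and the median difference of the 8 genes was -0.03, against -0.01 for all genes. Without HR2835, 2 of the 8 genes, SLC2A1 and PFKP, had an unadjusted p under 0.05, against 7.89% of all probe sets, and none passed the adjustment. In those 19 animals 4 of the 8 genes had the lower mean in HR, against 46.8% of all genes.

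SLC2A1, the transporter for basal glucose uptake, had the largest difference of the 8 genes, and was lower in HR without passing the adjustment. Its values had a lowest, median and highest of 7.66, 9.002 and 9.33 in HR, against 8.79, 9.28 and 9.65 in LR. Of the HR animals 9 of 10 lay below the median of LR, and 5 of 10 LR animals lay above every HR animal, but the groups overlapped between 8.79 and 9.33. The mean was 8.86 ± 0.46 in HR, against 9.25 ± 0.24 in LR (n = 10 per group, ± SD), a difference of -0.38 (SE 0.16), which is 76.8% of the LR level on the linear scale. The limma test gave an unadjusted p of 0.0229 and an adjusted p of 1.0. Without HR2835 the HR animals lay between 8.71 and 9.33, with a mean of 8.999 ± 0.19 (SD, n = 9), and the difference was -0.25 (SE 0.10), with an unadjusted p of 0.0234 and an adjusted p of 0.612.

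The second probe set of SLC2A1 did not show this difference. It was dim, with a mean of 5.42 ± 0.18 in HR and 5.32 ± 0.16 in LR, and differed by 0.10 in the opposite direction (unadjusted p = 0.239, adjusted p = 1.0, limma). It correlated with the brighter probe set at r = -0.27 over the 20 animals, and the mean of both gave a difference of -0.14. The lower level of SLC2A1 in HR thus rested on its brighter probe set.

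SLC2A3, the high-affinity transporter best known from neurons, had the widest spread of the 8 genes in both groups once HR2835 was left out (SD 0.52 in HR and 0.38 in LR). It had a lowest, median and highest of 9.42, 10.10 and 11.10 in HR, against 9.59, 10.34 and 10.90 in LR. The ranges overlapped almost completely, and the means were 10.21 ± 0.56 in HR, against 10.34 ± 0.38 in LR (n = 10 per group, ± SD). The difference of -0.13 (SE 0.20) was smaller than the spread in either group and was -0.05 without HR2835. The 4 other probe sets differed by between -0.05 and 0.08.

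**Figure D1:**
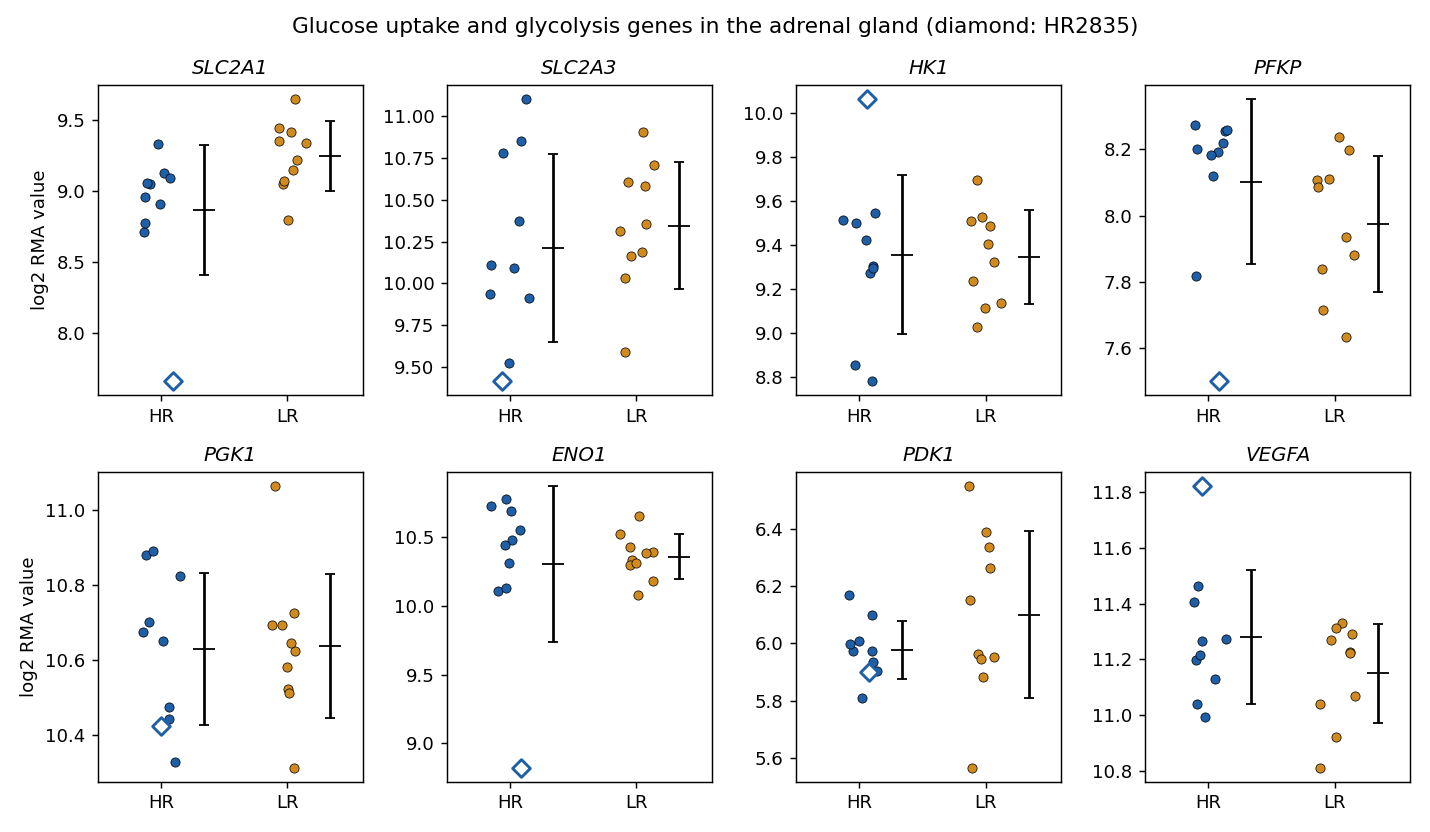
Log2 RMA values (y axis) of the 8 measured genes in 10 HR (left) and 10 LR (right) animals. Each point is 1 animal, the open diamond is HR2835, and the bar beside each group is the mean with its SD. In SLC2A1 and ENO1 the diamond lies far below the other HR animals, at 7.66 and 8.82, and the remaining values of both groups overlap in every gene.

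HK1, the hexokinase of most tissues, did not separate the groups. The lowest, median and highest values were 8.78, 9.37 and 10.07 in HR, the highest being HR2835, against 9.03, 9.36 and 9.70 in LR. Medians and means of both groups nearly coincided, with 9.36 ± 0.36 in HR, against 9.35 ± 0.22 in LR (n = 10 per group, ± SD). The difference was 0.01 (SE 0.13), and -0.07 (SE 0.11) without HR2835. Its sign was not stable, since it turned when any 1 of 8 animals was left out, HR2835 among them.

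PFKP, the platelet form of phosphofructokinase, was arranged the other way round from SLC2A1. It had a lowest, median and highest of 7.502, 8.20 and 8.27 in HR, against 7.63, 8.01 and 8.24 in LR. Of the HR animals 8 of 10 lay above the median of LR, while HR2835 had the lowest value of all. The means were 8.10 ± 0.25 in HR, against 7.97 ± 0.21 in LR (n = 10 per group, ± SD), and the difference of 0.13 (SE 0.10) had an unadjusted p of 0.230 and an adjusted p of 1.0 (limma). Without HR2835 it was 0.19 (SE 0.09), with an unadjusted p of 0.0348 and an adjusted p of 0.623. The second probe set of PFKP followed the first (r = 0.87 over 20 animals) and differed by 0.13, or 0.21 without HR2835. Markers of red blood cells (5 of 5 higher in HR, with a mean level of 5.01 to 5.80 in HR and 4.69 to 5.38 in LR) correlated with PFKP at r = 0.57 over 20 animals and 0.53 over the 19 without HR2835. In the 9 HR animals without HR2835 this coefficient was -0.35, and in LR it was 0.80. HK1 had r = -0.60 with these markers over 20 animals and -0.58 over 19. Of the markers HBB, the beta chain of hemoglobin, averaged 9.17 ± 0.53 in HR and 8.89 ± 0.41 in LR. ALAS2 averaged 5.76 ± 0.46 in HR and 5.35 ± 0.29 in LR. Of the 5, 2 had an unadjusted p under 0.05 (limma), against 3.65% of all probe sets, and none passed the adjustment. These 2 were ALAS2 (p = 0.0180) and the dim AHSP (p = 0.0359, mean 3.13), and not HBB (p = 0.167). Chromaffin markers, 7 of 9 higher in HR, had a mean level of 8.89 to 9.66 in HR and 8.44 to 9.71 in LR. They correlated with PFKP at r = 0.44 over 20 animals and 0.54 over 19, with 0.20 in the 9 HR animals and 0.74 in LR. For both lists the directions stand beside 53.7% of all genes with the lower mean in HR. With the chromaffin level as a covariate the difference of PFKP was 0.11, and the part of the red blood cells in it was not tested.

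PGK1, phosphoglycerate kinase, had nearly equal levels in both groups. The lowest, median and highest values were 10.33, 10.66 and 10.89 in HR, against 10.31, 10.63 and 11.06 in LR. Means of 10.63 ± 0.20 in HR, against 10.64 ± 0.19 in LR (n = 10 per group, ± SD) gave a difference of -0.01 (SE 0.09), and of 0.01 without HR2835. Its 9 probe sets spanned means of 2.82 to 10.63, and 7 of the 9 had the lower mean in HR, with none at an unadjusted p under 0.05. Of all genes 53.7% had the lower mean in HR. The brightest probe set and the next turned to the higher mean in HR without HR2835, by 0.01 and 0.03.

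ENO1, the enolase of most tissues, was measured by 1 probe set and showed how far HR2835 weighed on a group mean. Its lowest, median and highest values were 8.82, 10.46 and 10.77 in HR, against 10.07, 10.36 and 10.65 in LR. HR2835 was the lowest, and the next HR animal had 10.11. The means were 10.30 ± 0.57 in HR, against 10.36 ± 0.16 in LR (n = 10 per group, ± SD), a difference of -0.05 (SE 0.18). Without HR2835 the HR mean was 10.47 ± 0.25 (SD, n = 9) and the difference turned to 0.11 (SE 0.10), with an unadjusted p of 0.265 and an adjusted p of 0.778.

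PDK1, pyruvate dehydrogenase kinase 1, had a narrower range in HR than in LR. The lowest, median and highest values were 5.81, 5.97 and 6.17 in HR, against 5.57, 6.06 and 6.55 in LR. HR animals thus lay inside the range of LR, with 4 LR animals above and 1 below every HR animal. The SD was 0.10 in HR and 0.29 in LR, and the difference in spread was not tested. The mean of 5.98 in HR lay below that of 6.10 in LR by a log2 difference of -0.12 (SE 0.10, unadjusted p = 0.231, adjusted p = 1.0), which was -0.11 without HR2835. The dimmest of its 3 probe sets, at 3.02 ± 0.38 in HR and 2.71 ± 0.21 in LR, was higher in HR by 0.30 (unadjusted p = 0.0314, adjusted p = 1.0), and correlated with the brightest at r = -0.29.

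VEGFA had a lowest, median and highest of 10.99, 11.24 and 11.82 in HR, the highest being HR2835, against 10.81, 11.23 and 11.33 in LR. The medians nearly coincided, and 3 HR animals lay above every LR animal. The means were 11.28 ± 0.24 in HR, against 11.15 ± 0.18 in LR (n = 10 per group, ± SD), a difference of 0.13 (SE 0.10, unadjusted p = 0.194, adjusted p = 1.0) that was 0.07 (SE 0.08) without HR2835. All 5 probe sets of VEGFA had the higher mean in HR, also without HR2835, by 0.11 to 0.16 over all animals. The lower mean in HR was seen in 53.7% of all genes, and in 46.8% without HR2835. The dimmest of them, with a mean of 1.72, lay below the median level of all probe sets and did not follow the brightest (r = -0.01).

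**Figure D2:**
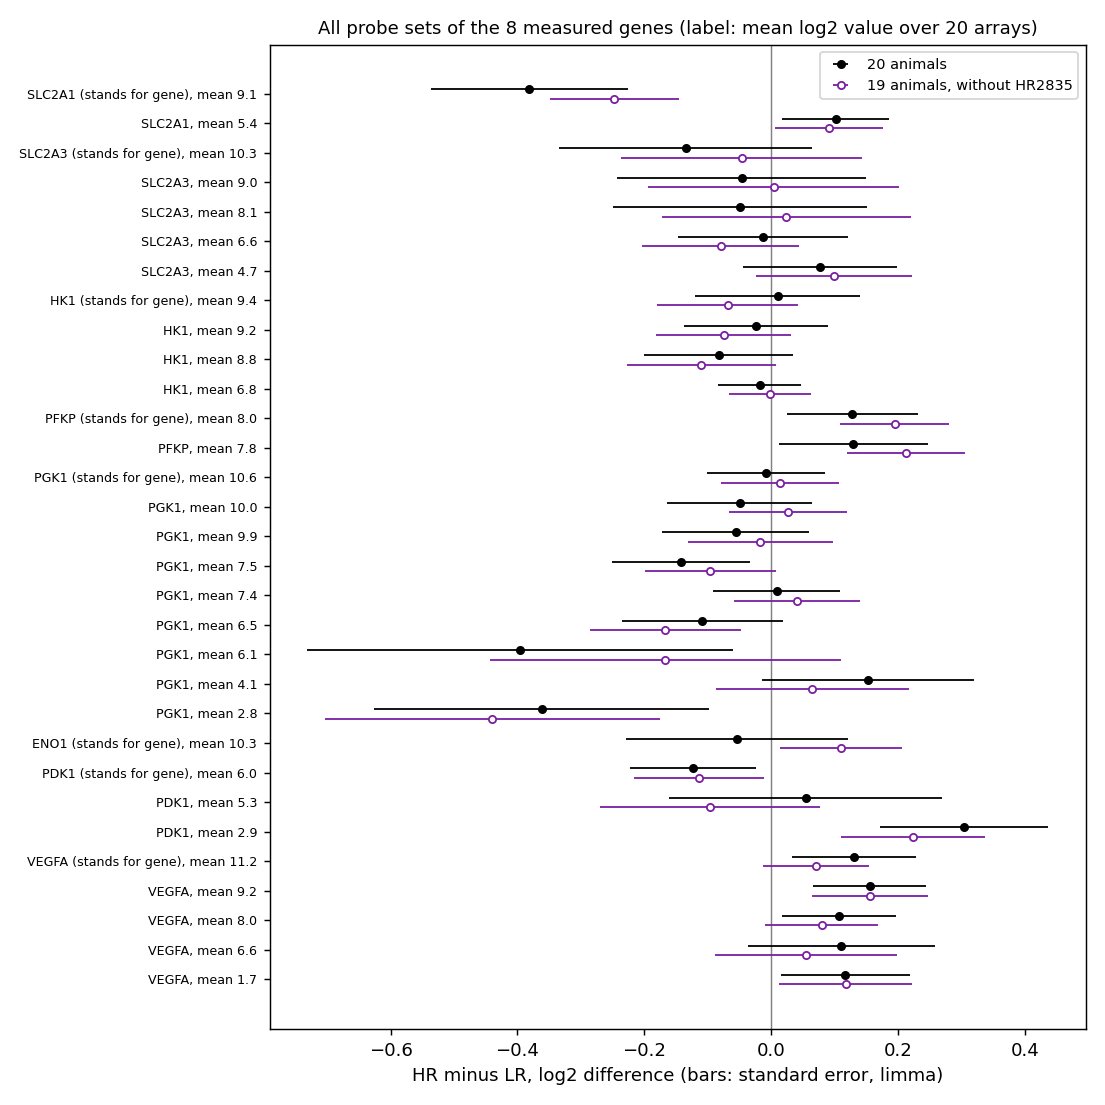
Difference HR minus LR (x axis, log2) for each of the 31 probe sets of the 8 genes (y axis, with the mean log2 value over 20 arrays), for all 20 animals (filled) and for 19 animals without HR2835 (open). Bars are the standard error of limma. The brighter probe set of SLC2A1 lies at -0.38 and -0.25, and its dim probe set lies on the other side of 0, at 0.10 and 0.09.

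Whether SLC2A1 moved together with the other genes over animals was tested by permutation, with adjustment over all 13587 other genes. None of the 7 genes passed it, and neither did any gene of the array (0.0%). ENO1 was the 1 gene of the 7 with an unadjusted p under 0.05, while 34.2% of all genes were below that value, and 5 of the 7 coefficients were above 0, against 62.1% of all genes. The median of the 7 coefficients was 0.10, against 0.15 for all genes.

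ENO1 correlated with SLC2A1 at r = 0.74 over the 20 animals (permutation p = 0.0132, adjusted p = 0.133), whereas Spearman's rho was 0.14 (p = 0.545, adjusted p = 1.0). Without HR2835 the coefficient was 0.15 (p = 0.534, adjusted p = 0.9995). It was 0.01 when HR2835 and LR2790, the 2 animals with SLC2A1 values most distant from its median, were both left out. The relation of SLC2A1 and ENO1 thus rested on HR2835, which was lowest in both genes.

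The other coefficients over 20 animals were smaller. SLC2A3 gave r = 0.41 and rho = 0.25 (permutation p = 0.0655 and 0.297). HK1 gave r = -0.41 and rho = -0.18 (p = 0.0814 and 0.443), and VEGFA gave r = -0.40 and rho = 0.09 (p = 0.0879 and 0.696). PFKP had r = 0.34 and rho = -0.07 (p = 0.145 and 0.769). PDK1 had r = 0.10 and rho = 0.21 (p = 0.662 and 0.375), and PGK1 had r = 0.01 and rho = -0.25 (p = 0.953 and 0.285). The adjusted p of these 6 genes lay between 0.169 and 0.972 for r and was 1.0 for rho.

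Without HR2835 the 7 coefficients lay between -0.33 for PGK1 and 0.305 for VEGFA, and those of HK1, PFKP, PGK1, PDK1 and VEGFA had the sign opposite to that over 20 animals. None had an unadjusted p under 0.05, against 3.58% of all genes, and 4 of the 7 were above 0, against 52.2% of all genes. Without HR2835 and LR2790 they were 0.07 for SLC2A3, 0.04 for HK1, 0.02 for PFKP, -0.34 for PGK1, 0.30 for PDK1 and 0.25 for VEGFA.

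**Figure D3:**
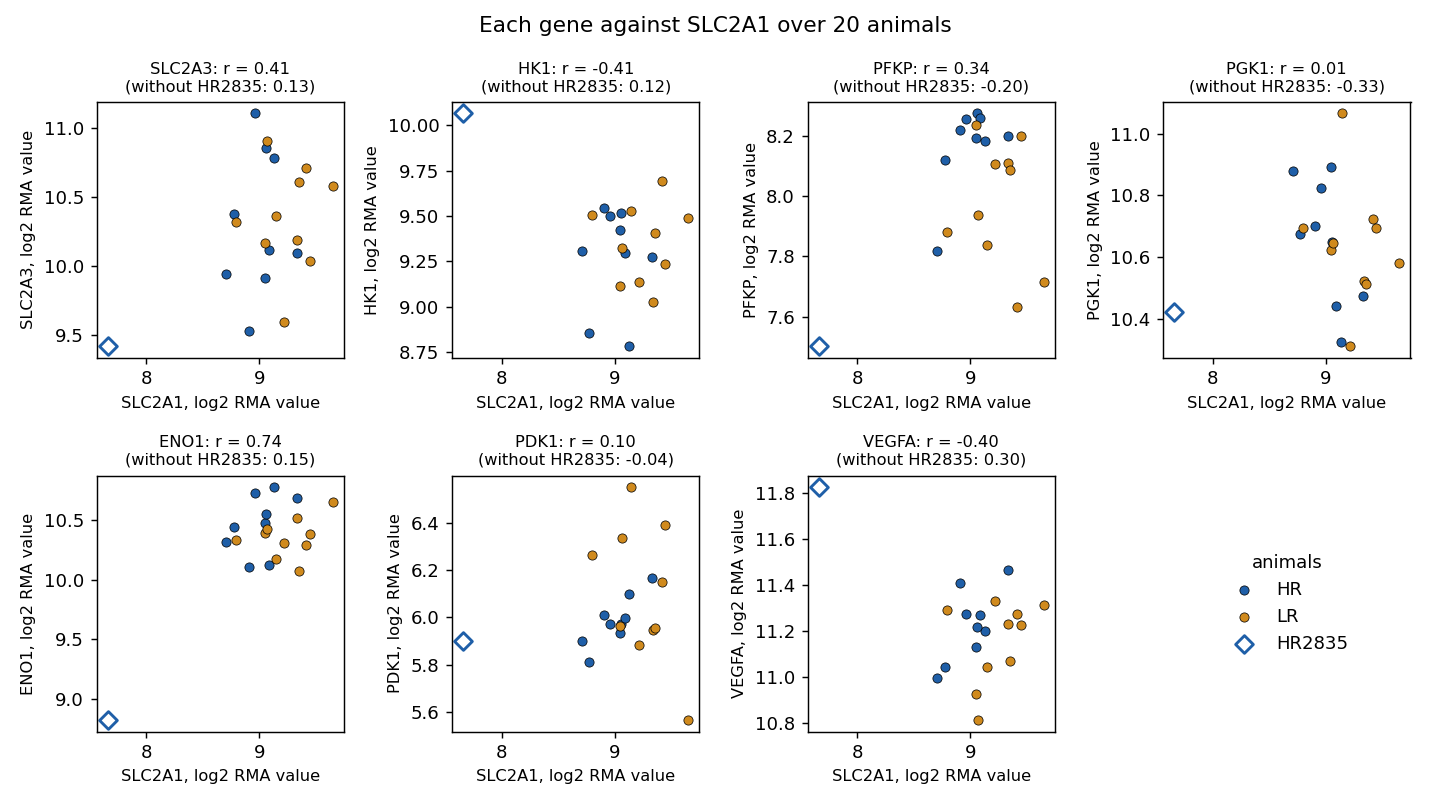
Each of 7 genes (y axis, log2 RMA value) against SLC2A1 (x axis, log2 RMA value) over 20 animals, HR in blue, LR in orange and HR2835 as an open diamond, with Pearson's r above each panel. The diamond lies apart at a SLC2A1 value of 7.66, and for ENO1 r is 0.74 with it and 0.15 without it.

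Within the groups the coefficients differed in size and sign, and these differences between HR and LR were not tested. Within HR, PFKP and ENO1 both reached r = 0.91 with SLC2A1 (permutation p = 0.00332 and 0.0121, adjusted p = 0.0759 and 0.0886), with rho of 0.58 and 0.65. These were 2 of 7 genes with an unadjusted p under 0.05, against 36.6% of all genes within HR, of which 9 genes (0.0662%) passed the adjustment. In the 9 HR animals without HR2835 they had r = 0.63 and 0.43 (permutation p = 0.0837 and 0.251), against 0.91 for both with it. The highest coefficient in these 9 animals was that of PDK1, with r = 0.86 (permutation p = 0.00452, adjusted p = 0.695), followed by VEGFA with r = 0.70 (permutation p = 0.0333, adjusted p = 0.698), while 6.96% of all genes had an unadjusted p under 0.05 in these animals. PGK1 ran the other way with r = -0.63 (permutation p = 0.0688, adjusted p = 0.704). In LR the same genes had r = -0.48 for PDK1, 0.37 for VEGFA and -0.19 for PGK1, with PFKP at -0.19 and ENO1 at 0.31 (permutation p between 0.161 and 0.617, adjusted p = 0.9998 for each). In LR 0 of the 7 genes had an unadjusted p under 0.05 by this permutation test, against 3.27% of all genes.

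The 28 pairs of the 8 genes are given as a description. Over 20 animals the coefficients had a median of 0.04 and lay between -0.63 (HK1 and ENO1) and 0.74 (SLC2A1 and ENO1), with 17 of 28 above 0. Without HR2835 the median was 0.07 and the range was -0.39 (HK1 and PFKP) to 0.53 (HK1 and PGK1), with 15 of 28 above 0, and 12 of the 28 pairs changed sign.

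Single pairs were alike in both groups or ran opposite ways, which was not tested. HK1 and PGK1 had r = 0.54 in the 9 HR animals without HR2835, 0.55 in LR and 0.53 in these 19 animals together. SLC2A3 and ENO1 had r = 0.73 in the 9 HR animals, but 0.01 in LR. HK1 and PFKP, the kinases of the upper part of glycolysis, had r = 0.21 in the 9 HR animals and -0.87 in LR. PGK1 and PDK1 had r = -0.64 in the 9 HR animals and 0.72 in LR, and PDK1 and VEGFA had 0.78 in the 9 HR animals and -0.37 in LR. Of the 28 pairs 16 had the same sign in the 9 HR animals and in LR.

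**Figure D4:**
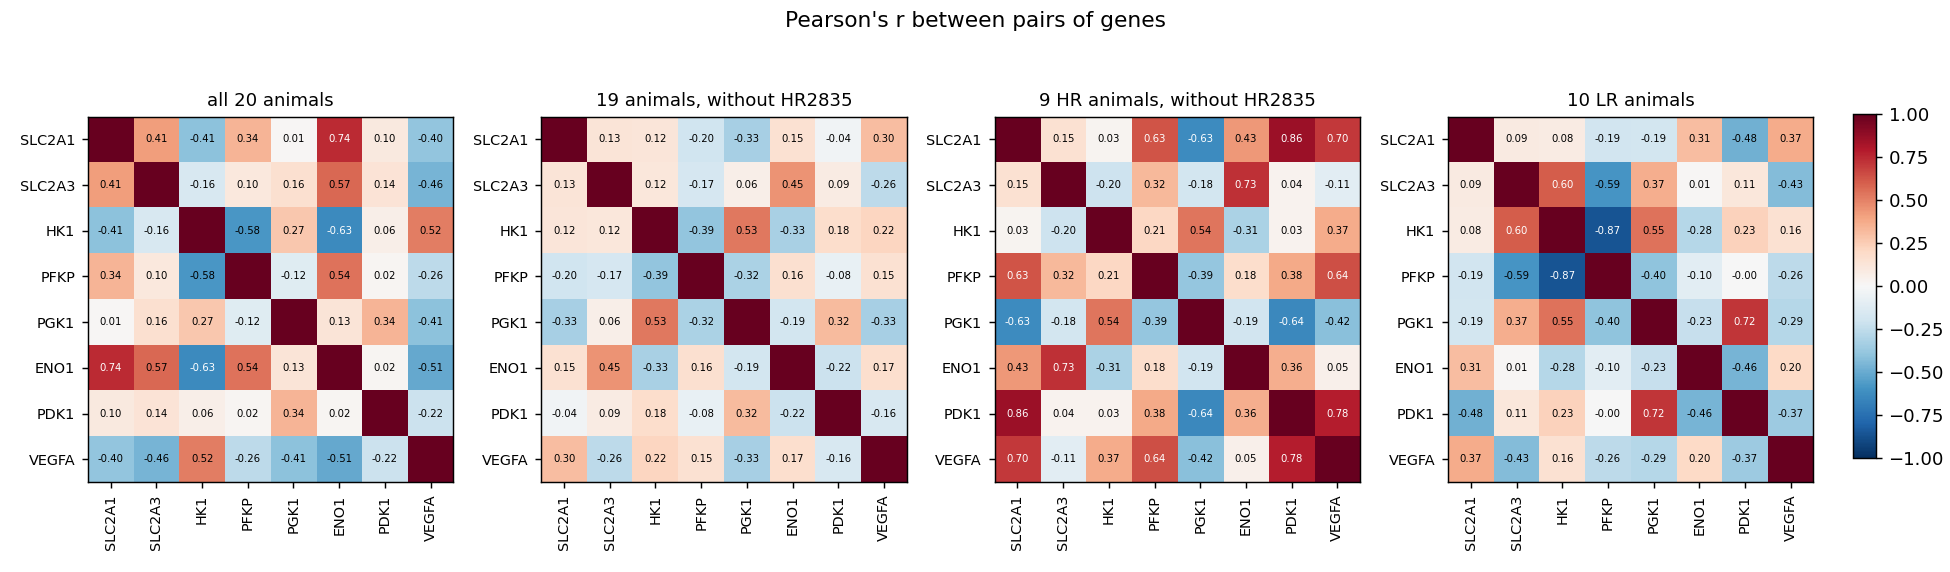
Pearson's r between the log2 RMA values of each pair of the 8 genes (rows and columns) over all 20 animals, over 19 animals without HR2835, over 9 HR animals without HR2835 and over 10 LR animals, from blue (-1) to red (1). SLC2A1 and ENO1 have 0.74 in the first panel and 0.15 in the second, and PGK1 and PDK1 have -0.64 in the third and 0.72 in the fourth.

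Bright probe sets of the same gene moved together over the animals. The 2 brightest of SLC2A3 correlated at r = 0.96, those of HK1 at 0.92, those of PFKP at 0.87, those of PGK1 at 0.84 and those of VEGFA at 0.74, and without HR2835 these coefficients were 0.98, 0.92, 0.81, 0.94 and 0.90. Against the brightest probe set, the dimmest had r = -0.27 in SLC2A1, -0.06 in PGK1 and -0.01 in VEGFA. In SLC2A3 brightness did not order the coefficients, since its dimmest probe set, with a mean of 4.698, had r = 0.73 and the next, with a mean of 6.62, had r = -0.02. PDK1, whose brightest probe set had a mean of 6.04, correlated with its next at r = 0.41, and at 0.67 without HR2835.

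The gene whose pattern was most like that of SLC2A1 over the 20 animals, by Pearson's r, was CAPZB, a subunit of the capping protein of actin filaments. CAPZB had r = 0.92 and rho = 0.73 (permutation p = 2e-05 and 0.00026, adjusted p = 0.133 for r), and r = 0.76 without HR2835 (adjusted p = 0.679). It had r = 0.96 within HR and 0.88 within LR. The next were USP10 (0.88), a deubiquitinase, PCBP2 (0.88), an RNA-binding protein, KDELR2 (0.87), a receptor for retrieval to the endoplasmic reticulum, LCMT2 (0.87), RPS2 (0.87), a ribosomal protein, RBM17 (0.86) and ACTB (0.86), cytoplasmic actin. In these 7 genes r was 0.52 to 0.61 without HR2835. The lowest coefficients were those of SETBP1 (-0.85), POLA1 (-0.85), the catalytic subunit of DNA polymerase alpha, PYROXD1 (-0.84) and TRPM3 (-0.84), a cation channel, and they were -0.59, -0.67, -0.63 and -0.44 without HR2835. Over the 19 other animals 1 of these 12 genes, CAPZB, was again among the 8 highest and 4 lowest coefficients, which then ended with EPHB1 (-0.83), a receptor of ephrins. None of these 12 genes is an enzyme of glycolysis, and 379 genes had a coefficient with SLC2A1 at or above that of ENO1.

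Other genes of glucose uptake and glycolysis were taken from a list of 45, of which 35 had a named probe set. None had an adjusted or an unadjusted p under 0.05 between HR and LR (limma), against 3.65% of all probe sets for the unadjusted p. Of the 35 genes 16 were higher and 19 lower in HR, while 53.7% of all genes had the lower mean in HR. The median difference was -0.0043. Without HR2835, 22 were higher and 13 lower, against 46.8% of all genes with the lower mean in HR, and the median was 0.03. GPI, glucose-6-phosphate isomerase, had the smallest p, with 12.28 ± 0.30 in HR and 12.50 ± 0.13 in LR (difference -0.21, unadjusted p = 0.0554, adjusted p = 1.0). Without HR2835 the difference of GPI was -0.12 (unadjusted p = 0.0884), and PDHA1, a subunit of pyruvate dehydrogenase, had the smallest p (difference -0.24, unadjusted p = 0.0811). The insulin-regulated transporter SLC2A4 had 5.79 ± 0.20 in HR and 5.99 ± 0.28 in LR, and SLC16A1, which carries lactate and pyruvate, had 7.34 ± 0.42 in HR and 7.81 ± 0.84 in LR. Their differences were -0.20 and -0.48, with unadjusted p of 0.0765 and 0.0919, and were -0.16 and -0.39 without HR2835. GAPDH had 12.91 ± 0.29 in HR and 12.95 ± 0.06 in LR, TPI1 11.03 ± 0.46 in HR and 11.02 ± 0.17 in LR, and PGAM1 9.84 ± 0.32 in HR and 9.89 ± 0.11 in LR. TXNIP, which restrains glucose uptake, had 11.34 ± 0.31 in HR and 11.36 ± 0.29 in LR.

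SLC2A1 correlated with these 35 genes at a median of 0.36 over 20 animals, and at 0.01 without HR2835, in which the mean level of the list was 6.25, against 6.57 to 6.69 in the other HR animals and 6.54 to 6.67 in LR. GAPDH had r = 0.78 with SLC2A1 over 20 animals and 0.15 over 19, GPI 0.72 and 0.14, and TPI1 0.71 and 0.11. Against the mean standardized level of the 35 genes, ENO1 had r = 0.89 over 20 animals and 0.58 without HR2835, PFKP had 0.69 and 0.52, SLC2A1 had 0.74 and 0.03, and HK1 had -0.66 and -0.41.

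Genes of the hypoxia response were taken from a list of 33, of which 29 had a named probe set, with ERO1A under its older symbol ERO1L. The list mixes genes that respond to hypoxia with the hypoxia-inducible factors and their regulators, such as VHL and HIF1AN. Counts and levels of the list cover both kinds. Of the 29 genes 8 were higher and 21 lower in HR, none after adjustment, while 53.7% of all genes had the lower mean in HR. Without HR2835 the counts were again 8 and 21, against 46.8% of all genes with the lower mean in HR. The median difference was -0.08, and -0.04 without HR2835. LOX, the collagen crosslinking enzyme lysyl oxidase, was the 1 gene of 29 with an unadjusted p under 0.05, against 3.65% of all probe sets, with 4.88 ± 0.28 in HR and 5.30 ± 0.29 in LR (difference -0.42, unadjusted p = 0.00251, adjusted p = 1.0). Without HR2835 there were 3 of 29, LOX (-0.42), ERO1L (-0.35) and INSIG2 (-0.56), against 7.89% of all probe sets. Among the factors themselves, HIF1A had 9.41 ± 0.29 in HR and 9.47 ± 0.36 in LR, EPAS1 10.27 ± 0.24 in HR and 10.37 ± 0.20 in LR, and their partner ARNT 8.26 ± 0.14 in HR and 8.38 ± 0.11 in LR. BNIP3 and BNIP3L, mitophagy receptors, differed by -0.05 and -0.08, and by -0.0091 and -0.13 without HR2835. Against the mean standardized level of the 29 genes SLC2A1 had r = 0.71 over 20 animals and 0.45 without HR2835. Within the 9 HR animals without HR2835 it had 0.14, and within LR 0.38. Over 20 animals and without HR2835, VEGFA had -0.29 and 0.29, PDK1 0.31 and 0.24, and HK1 -0.06 and 0.46. PFKP had 0.125 and -0.34, ENO1 0.43 and -0.27, SLC2A3 0.26 and -0.02, and PGK1 0.25 and 0.08.

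Cell type markers were set beside the 8 genes. Of all genes 53.7% had the lower mean in HR, and 46.8% without HR2835. Markers of capsule and fibroblast were lower in HR in 9 of 9 genes, with a mean level of 7.96 to 9.34 in HR and 8.82 to 9.68 in LR, and COL1A2, a collagen chain, averaged 10.67 ± 0.57 in HR and 11.01 ± 0.31 in LR. Its difference of -0.33 was -0.17 without HR2835, which had 9.19. The median difference of the 9 markers was -0.33, and -0.21 without HR2835. Of the 9, 2 had an unadjusted p under 0.05 (limma), LUM and DCN but not COL1A2, against 3.65% of all probe sets. LUM differed by -0.66, and by -0.52 without HR2835, and DCN by -0.35 and -0.31. Without HR2835, 1 of 9, LUM, had an unadjusted p under 0.05, against 7.89%. None passed the adjustment in either case. Without this animal 8 of 9 markers were lower in HR, and r between the markers and SLC2A1 was 0.59 over 20 animals and 0.01 over 19. Markers of the cortex were lower in HR in 7 of 7 genes, and in 4 of 7 without HR2835. Their median difference was only -0.04, or -7e-06 without HR2835, and none of these markers had an unadjusted p under 0.05 (limma). They had r = 0.77 with SLC2A1 over 20 animals and 0.37 over 19, and 0.83 and 0.55 with ENO1. Their level in HR2835 was 12.74, against 12.99 to 13.15 in the other HR animals and 12.97 to 13.12 in LR. Endothelial markers were lower in HR in 8 of 11 genes, and in 4 of 11 without HR2835. They had r = 0.69 with SLC2A1 over 20 animals and 0.21 over 19, or 0.089 where the standardization kept HR2835, and their level in HR2835 was 7.33, against 7.75 to 8.12 in the other HR animals and 7.73 to 8.02 in LR. Chromaffin markers had r = -0.06 with SLC2A1 over 20 animals, and with their level as a covariate the difference of SLC2A1 between HR and LR was -0.38. The part of the other cell types in the difference of SLC2A1 was not tested. With leukocyte markers, 9 of 10 higher in HR and 8 of 10 without HR2835, SLC2A1 had r = 0.26 over 20 animals and -0.15 over 19. The coefficients were 0.66 and 0.05 with smooth muscle markers, 0.24 and -0.23 with those of adipocytes, and 0.55 and -0.33 with those of Schwann and sustentacular cells.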

How the data were processed

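RNA of 20 adrenal glands, 10 HR and 10 LR, was measured on Affymetrix Porcine Snowball arrays, and each column was assigned to its animal by the name in the sample labels. According to the methods, the authors used GCOS 1.1.1 for the scanned arrays and Expression Console for RMA, and the deposited log2 values were taken as they are. No filter on dim probe sets was applied. RMA assumes like distributions on all arrays, and log2 differences of dim probe sets can be compressed. Of 47845 probe sets 123 were controls, and of the 47722 others 26426 had 1 gene symbol in the annotation table of the array, 21296 had none and 0 had several. Genes were taken from 26014 transcript probe sets. Columns of samples not used here numbered 0.

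Group differences (HR minus LR) came from limma 3.58.1 under R 4.3.3, two-sided and without covariates. P-values were adjusted by Benjamini and Hochberg over the whole table, at a threshold of 0.05. Correlations with SLC2A1 were tested two-sided by permutation with 100000 resamples and adjusted over all 13587 other genes, so that 1e-05 was the smallest p they could give. Where 1 animal other than HR2835 was left out, 20000 resamples were drawn and 5e-05 was the smallest p. Both steps were checked on simulated data. A marker level is the mean log2 value of its genes, and its correlations use values standardized per gene over the animals used.

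The genes, the lists and the rule for named genes were chosen with earlier results of these data known. Named were the 10 genes with all probe sets, the 8 highest and 4 lowest coefficients with SLC2A1, in the 2 gene lists the 6 brightest and the 4 with the smallest p, and in each cell type list the 2 brightest, of which a part is printed. AHSP, LUM and DCN were named outside this rule, for their unadjusted p under 0.05. Alternatives were median centring, array weights, quantile normalization, trended and robust variances, bright probe sets only, the mean of all probe sets, 2 covariates, Spearman's rho, removed group means, each group alone and each animal left out. HR without HR2835 was added after the data were seen. The number of arrays limits the precision.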

Additional observations from a re-analysis of the deposited data

Results flagged for a closer look

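In 2 of the 16 groups of 10 values tested (8 genes in HR and in LR), 1 animal lay far from the others by Dixon's criterion, which chance alone meets in about 0.05 of groups. ENO1 in HR2835 was 8.82, with the next HR animal at 10.11, and this gap took 0.658 of the range of HR, above the critical value for 10 animals. SLC2A1 in HR2835 was 7.66, with the next HR animal at 8.71, a gap of 0.628 of the range. Both belong to the array that correlated least with the others, and what sets it apart is not given in the labels.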

How the results depend on the processing

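None of the 8 genes passed the adjustment between HR and LR under the 8 other settings or without any 1 animal, and none of the 7 coefficients with SLC2A1 did under any setting tried. The difference of SLC2A1 kept its sign, from -0.38 to -0.14 under the other settings and from -0.43 to -0.25 with 1 animal left out. It was -0.14 for the mean of its probe sets and -0.28 with array weights. Trended and robust variances, bright probe sets only and the first residual component as a covariate left it at -0.38. These settings cannot change a difference of means, so they do not test its sign. Differences of HK1, PGK1, ENO1 and PDK1 changed sign in some settings, and the cause was not tested. HK1 was -0.012 with array weights and -0.029 for the mean of its probe sets, and ran from -0.069 to 0.074 with 1 animal left out. PGK1 was 0.023 after quantile normalization and 0.044 with array weights, and ran from -0.045 to 0.039. ENO1 was 0.070 with array weights and ran from -0.11 to 0.11, and only leaving out HR2835 turned it. PDK1, at -0.12 for its brightest probe set, was 0.078 for the mean of its probe sets. Its other probe sets were higher in HR, by 0.05 and 0.30.

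The median coefficient of SLC2A1 with the 7 genes was 0.51 within HR, against 0.29 for all genes. Within HR without HR2835 it was 0.43, against -0.0035 for all genes. With 1 animal left out it ran from 0.02 to 0.33. Coefficients with HK1 were 0.079 within LR, 0.025 within HR without HR2835 and 0.036 without the 2 most distant animals, and ran from -0.53 to 0.12 with 1 animal left out. Those with PFKP were -0.19 within LR and -0.071 as rho, and ran from -0.20 to 0.51. Those with PGK1 were -0.19 within LR, -0.63 within HR without HR2835, -0.34 without the 2 most distant animals, -0.30 after quantile normalization and -0.25 as rho, and ran from -0.33 to 0.079. Those with PDK1 were -0.48 within LR, -0.046 with group means removed and -0.59 for the mean of its probe sets, and ran from -0.036 to 0.33. Those with VEGFA were 0.37 within LR, 0.70 within HR without HR2835, 0.25 without the 2 most distant animals and 0.092 as rho, and ran from -0.47 to 0.305. The lowest or highest value with 1 animal left out was that without HR2835 in HK1, PFKP, PGK1, PDK1 and VEGFA. No paired analysis was possible because the labels give nothing that pairs HR with LR animals. All HR animals but HR2593 have a number above that of every LR animal, and what the numbers stand for is not given in the labels.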
